A study of Mus musculus with 20 samples.

Results

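The 8 genes S100a4, S100a6, S100a8, S100a9, S100a10, S100a11, S100a14 and S100a16 encode the S100 proteins described here, and they were taken by symbol from a table of raw read counts for 25719 genes. All 8 symbols were found. Of these, 7 passed the filter on low counts and were tested among 12424 genes, and S100a9 did not pass it.

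S100 proteins are small proteins that bind calcium through EF-hand loops, usually act as dimers and change shape when calcium enters the cell. Inside keratinocytes they dock onto annexins, myosin and other targets at the membrane and the cytoskeleton. S100A8 and S100A9 are different in use: as the heterodimer calprotectin they are released as alarm proteins, bind metals that microbes need, and are known to rise in wounded or inflamed epidermis and to be abundant in neutrophils. Most of the genes lie in the epidermal differentiation complex, a gene cluster that also holds the filaggrin and loricrin families.

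The libraries came from keratinocytes enriched by FACS from ear and dorsal skin of 20 mice, 5 in each of 4 groups. The mice called cKO came from a cross of K14-CreERTam with Cyp11b1 L2/L2. They carried floxed alleles of Cyp11b1, which encodes the last enzyme of corticosterone synthesis, and a tamoxifen-inducible Cre under the keratin 14 promoter, which acts in basal keratinocytes. Controls were Cyp11b1 L2/L2 littermates without Cre. All 20 mice, controls included, received tamoxifen on 5 days and were sampled on day 6. In the topical groups tamoxifen in ethanol was put on the ear (20 µl) and the dry-shaved back (100 µl). In the systemic groups it was injected into the peritoneum in oil-ethanol (100 µl of 10 mg/ml). Shaving, vehicle and route therefore changed together, and their parts in a route difference cannot be told apart. Ages are not given in the sources used here. The study asked how local and systemic loss of glucocorticoid synthesis in skin differ.

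Library totals ran from 11.59 to 50.08 M counts. Levels are given in CPM, a gene's counts as a part of its library's TMM-adjusted total, and 3 counts, taken here as the limit of detection, corresponded to 0.0729 to 0.264 CPM. Sums over cell marker lists and over satellite-like transcripts are CPM of the library total alone, without the TMM adjustment. They are thus on another scale than the levels of single genes. On that scale keratinocyte markers summed to between 89300 and 118000 CPM in every library. Cyp11b1 had 22 reads in all 20 libraries, and 3 libraries exceeded 3 reads. There were 9 reads in topical controls, 7 in topical cKO, 2 in systemic controls and 4 in systemic cKO, so the deletion could not be checked at this depth. Other features of the libraries varied as well. Mitochondrial genes took 1.87% to 3.68% of counts in 10 libraries and 5.24% to 7.49% in the 10 others, with all 4 groups on both sides. Satellite-like transcripts from 12 predicted genes summed to over 50 CPM in all 5 systemic controls and in systemic cKO 2, and in none of the 14 other libraries.

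In GRCm38, as annotated in GENCODE M21, all 8 genes are protein-coding genes on chromosome 3. S100a14 (chr3:90526856-90528837), S100a16 (chr3:90537254-90543151), S100a4 (chr3:90603771-90606045), S100a6 (chr3:90612882-90624181) and S100a8 (chr3:90668978-90670035) follow one another on the plus strand, and S100a9 (chr3:90692632-90695721) lies on the minus strand. S100a11 (chr3:93520488-93526287) and S100a10 (chr3:93555080-93564643), both on the plus strand, form a separate pair 2824.77 kb farther along. S100a4 and S100a6 are the closest neighbours, with 6.84 kb between them.

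The sequences upstream of 4 members are shown because S100a4 and S100a6 are the 2 members whose levels differed between routes in both genotypes, and S100a8 and S100a9 are the calprotectin pair. They are RefSeq sequences of GRCm38, read 5′ to 3′ on each gene's own strand, of the up to 250 bases before the RefSeq start that also lie before the GENCODE start. Capitals mark matches on either strand to 4 searched motifs, and each printed window holds at most 1 match. The AP-1 motif, with the letters TGANTCA, is held by 6.75% of 32851 mouse promoter windows of the same length. For C/EBP factors the letters were TTGCNNAA, held by 9.56% of these windows. A core of the glucocorticoid receptor site, AGAACA, is held by 16.1%. The TATA box, searched as TATAAA, is held by 12.4%.
S100a4, chr3:90603520-90603769: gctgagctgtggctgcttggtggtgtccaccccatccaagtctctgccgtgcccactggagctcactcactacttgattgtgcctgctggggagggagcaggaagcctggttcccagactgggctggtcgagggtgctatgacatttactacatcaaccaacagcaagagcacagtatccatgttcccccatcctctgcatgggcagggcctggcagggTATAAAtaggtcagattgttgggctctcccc
S100a6, chr3:90612644-90612881: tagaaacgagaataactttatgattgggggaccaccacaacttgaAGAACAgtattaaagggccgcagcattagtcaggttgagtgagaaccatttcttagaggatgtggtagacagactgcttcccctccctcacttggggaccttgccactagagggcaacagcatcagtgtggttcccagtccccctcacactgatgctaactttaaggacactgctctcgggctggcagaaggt
S100a8, chr3:90668821-90668977: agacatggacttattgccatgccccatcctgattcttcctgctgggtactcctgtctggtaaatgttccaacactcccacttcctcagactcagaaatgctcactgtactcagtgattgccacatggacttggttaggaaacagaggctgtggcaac
S100a9, chr3:90695722-90695971 (minus strand): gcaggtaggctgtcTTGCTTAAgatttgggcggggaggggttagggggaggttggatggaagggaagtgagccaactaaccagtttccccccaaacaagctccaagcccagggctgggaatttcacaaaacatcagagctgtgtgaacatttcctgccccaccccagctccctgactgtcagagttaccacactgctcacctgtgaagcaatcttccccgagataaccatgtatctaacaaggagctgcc
The S100a4 window holds a TATA box at position -31, counted from the RefSeq start. The S100a6 window holds 1 core of the glucocorticoid receptor site, at position -205. In the S100a9 window the C/EBP match lies at position -236, and the printed S100a8 stretch holds no match to these letters. S100a8 does have a TATA box, at position -30, in the part of its window that lies after the GENCODE start and is not printed. A match is a match of letters and shows no binding.

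To order the members by abundance, CPM was divided by the length of the principal transcript in kb. S100a10 came first with 928 ± 293 CPM per kb (mean ± SD over 20 libraries), followed by S100a6 with 725.9 ± 341, S100a11 with 723 ± 228, S100a16 with 477 ± 159 and S100a14 with 354 ± 125. S100a4 stood far lower at 24.2 ± 17.5 CPM per kb. S100a8 at 1.15 ± 1.72 and S100a9 at 0.63 ± 0.886 CPM per kb were near the limit of detection. S100a10 exceeded S100a6 in 16 of 20 libraries and S100a6 exceeded S100a11 in 8, so S100a6 and S100a11 could not be ordered. S100a16 exceeded S100a14 in 20 of 20 libraries. The order of the top 3 rested on the length used: per kb of all exons joined, S100a11 led with 723, followed by S100a10 with 524.5 and S100a6 with 388 CPM per kb. Within groups S100a6 ranked 1 of 8 in topical controls and 4 of 8 in both systemic groups.

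**Figure D1:**
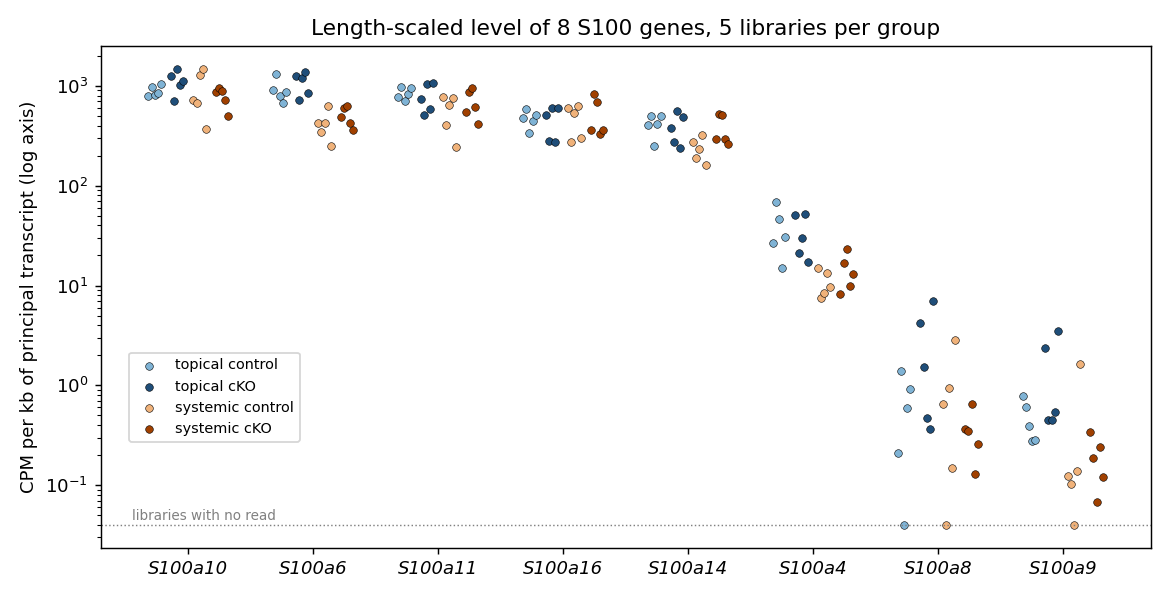
Level of each S100 gene per kb of principal transcript (CPM per kb, log axis) in 20 libraries, 1 point per mouse, coloured by group. S100a10, S100a6, S100a11, S100a16 and S100a14 lie together at the top, S100a4 below them, and S100a8 and S100a9 lowest. Libraries with no read are drawn on the dotted line.

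The comparison of cKO with control asked whether deletion of Cyp11b1 in keratinocytes changed S100 transcripts. By edgeR's quasi-likelihood test with Benjamini-Hochberg adjustment over 12424 genes (called under 0.05), 0 of the 7 tested members were called after topical tamoxifen, where 0.129% of all genes were called. After injection 0 members were called, against 1.89% of all genes. The interaction, which asks whether the genotype effect differed between routes, called 0 members, against 0.25% of all genes. At an unadjusted p under 0.05 there was 1 member in each of these 3 comparisons, S100a8, S100a14 and S100a8 again, beside 703, 1907 and 1739 of all genes. DESeq2's Wald test also called 0 members in the 3. The median log2 fold change of the 7 members was -0.058 for topical cKO against control and 0.27 for systemic, where over all genes tested it was 0.020 and -0.0045.

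The comparison of systemic with topical treatment within a genotype used different mice of the same strain and gave calls. In controls 3 of 7 members, S100a4, S100a6 and S100a14, were lower after injection, and none was higher. Of all genes, 18.3% were called in that comparison and 8.16% were called lower. In cKO, S100a4 and S100a6 were lower, 2 of 7 members, where 9.22% of all genes were called and 4.02% were called lower. The median log2 fold change of the members was -0.59 in controls and -0.50 in cKO, against 0.00081 and -0.013 over all genes. The 5 comparisons share libraries, since each group enters more than one, so they are not independent of each other.

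**Figure D2:**
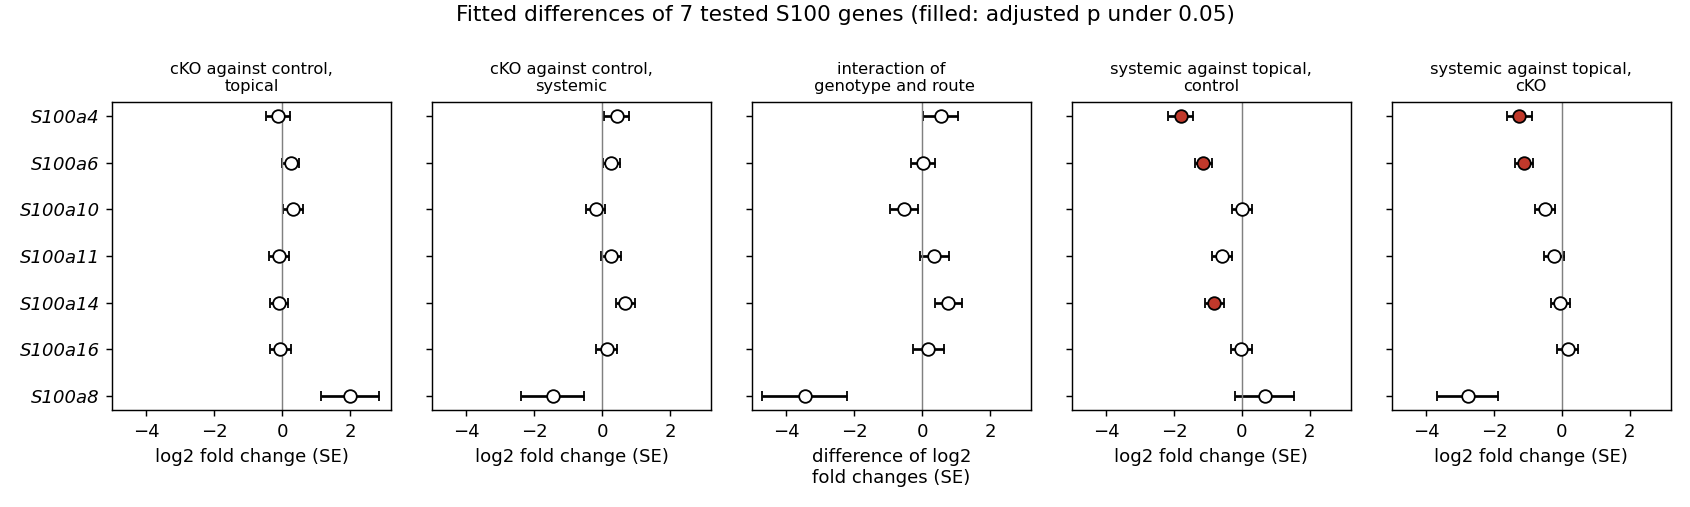
Fitted log2 fold change (x axis, bars are SE) of the 7 tested S100 genes in each of the 5 comparisons. Filled points passed an adjusted p of 0.05 in edgeR's quasi-likelihood test: S100a4, S100a6 and S100a14 for route in controls, and S100a4 and S100a6 for route in cKO, all to the left of 0.

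S100a6 (ENSMUSG00000001025), or calcyclin, binds the ubiquitin ligase adaptor encoded by Cacybp and is found in proliferating cells. Its level was 666, 952, 577, 495 and 629.9 CPM in the 5 topical controls, and 309, 251.5, 309.7, 458 and 183 CPM in the 5 systemic controls. Every systemic control lay below every topical control. The means were 664 ± 173 and 302 ± 102 CPM (SD, n = 5 each), with a log2 fold change of -1.14 (SE 0.26, edgeR adjusted p = 0.00443). The cKO groups gave the same order, at 913, 531, 884, 1012 and 614 CPM after topical treatment and 353, 435, 459, 313.5 and 267 CPM after injection. These groups did not overlap either, with means of 790.8 ± 207 and 365.5 ± 80.8 CPM (SD, n = 5 each) and a log2 fold change of -1.11 (SE 0.26, edgeR adjusted p = 0.00741). Between genotypes the groups overlapped within each route. The log2 fold change for cKO against control was 0.25 (SE 0.25, edgeR adjusted p = 0.997) after topical treatment and 0.27 (SE 0.25, adjusted p = 0.670) after injection.

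S100a6 was also compared within each side of the mitochondrial split. In libraries with the lower mitochondrial share, the mean was 749 CPM in 3 topical controls and 359 CPM in 3 systemic controls. With the higher share it was 536 CPM in 2 topical and 217 CPM in 2 systemic controls. The cKO means were 804 CPM (3 topical libraries) and 435 CPM (1 systemic library) on the lower side, and 772 CPM (2 topical) and 348 CPM (4 systemic) on the higher side. The routes did not overlap in either genotype, so the systemic mean had to be the lower one in all 4 of these settings. This split therefore does not test the part of the mitochondrial share. Satellite-like transcripts separated the controls exactly as route did, so these cannot be told apart in controls, and with that split as a covariate S100a6 was not called there (log2 fold change -1.07, edgeR adjusted p = 0.841). Inside groups that split varied only in systemic cKO, where number 2 alone was over 50 CPM. Every value adjusted by it therefore rests on 1 library. In cKO the call stood with that covariate, and without systemic cKO 2 the log2 fold change was -1.10 (edgeR adjusted p = 0.0165). Leaving out any 1 library kept S100a6 called in 10 of 10 fits in each genotype.

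S100a4 (ENSMUSG00000001020) encodes metastasin, which binds the heavy chain of non-muscle myosin encoded by Myh9 and is also expressed by fibroblasts and immune cells. Topical controls held 13.4, 34.5, 23.1, 7.43 and 15.1 CPM, and systemic controls 7.47, 3.77, 4.21, 6.65 and 4.76 CPM. The highest systemic control barely passed the lowest topical control, and the other values did not overlap. The means were 18.7 ± 10.5 and 5.37 ± 1.61 CPM (SD, n = 5 each), a log2 fold change of -1.81 (SE 0.38, edgeR adjusted p = 0.00283). Topical cKO held 25.6, 10.5, 14.8, 25.7 and 8.54 CPM and systemic cKO 4.14, 8.34, 11.5, 4.93 and 6.44 CPM. One systemic cKO library, number 5, was above 2 topical ones. The means were 17.01 ± 8.18 and 7.07 ± 2.95 CPM (SD, n = 5 each), a log2 fold change of -1.26 (SE 0.37, edgeR adjusted p = 0.0347).

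The call for S100a4 in cKO was less firm than that in controls. It was made in 4 of 10 fits that left out 1 library, with log2 fold changes reaching -1.06 at the smallest, and was lost without topical cKO 2 or 5 and without systemic cKO 2, 4, 6 or 7. The highest edgeR adjusted p, 0.112, came without topical cKO 5. In controls the call was made in 10 of 10. The call in cKO was also lost without the filter on low counts (edgeR adjusted p = 0.0958). It was lost as well with the numbers in the sample names as a block (adjusted p = 0.0843). With the satellite-like covariate the log2 fold change was -0.88 in controls (edgeR adjusted p = 0.964) and -1.13 in cKO (adjusted p = 0.0792). Without it the values were -1.81 and -1.26. The covariate rests on systemic cKO 2 alone, so the change in controls carries the deviation of that library and does not show a smaller route difference. By mitochondrial side, the control means were 20.98 CPM topical and 6.11 CPM systemic on the lower side (3 libraries each) and 15.3 and 4.27 CPM on the higher side (2 each). For cKO against control the log2 fold change of S100a4 was -0.12 (SE 0.36) after topical treatment and 0.43 (SE 0.38) after injection, with edgeR adjusted p of 0.997 and 0.652.

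Markers of other cells were set beside S100a4, since fibroblasts and immune cells express it too. Their sums are CPM of the library total alone. The 9 fibroblast markers summed to 13.1 to 29.6 CPM (median 17.8) in topical controls and 8.21 to 40.6 (median 9.9) in systemic controls, where the highest value was systemic control 6. In cKO they summed to 14.6 to 57.5 CPM (median 16.2) after topical treatment and 12.4 to 15.4 CPM (median 13.7) after injection. The median was thus lower after injection in both genotypes, as S100a4 was. Of the 6 fibroblast markers tested, 1 (Fbln1) was lower in systemic than topical cKO and 0 were called in controls. Of all genes, 4.02% were called lower in that cKO comparison and 18.3% were called in controls. The 9 markers of Langerhans cells and T cells summed to 8.83 to 18.6 CPM (median 14.1) in topical controls, 8.58 to 33.4 (median 15) in systemic controls, 8.91 to 16.1 (median 14.9) in topical cKO and 19.7 to 38.7 CPM (median 21.1) in systemic cKO. None of these markers was at 0 in all libraries, and their part in the S100a4 result was not tested. In bulk RNA, fewer cells of a type and less RNA per cell cannot be told apart.

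The annotation bears on S100a4 as well. Of its 584 exon bases, 302 are shared with the predicted gene Gm42674 on the same strand, and how reads in the shared part were assigned is not given in the sources used here. Gm42674, looked at after its values were seen, gave log2 fold changes of -1.77 (SE 0.40, edgeR adjusted p = 0.00430) for route in controls and -1.26 (SE 0.39, adjusted p = 0.0433) in cKO. Counts of both added together were 34.1 ± 19.3 CPM in topical and 9.93 ± 2.93 CPM in systemic controls, and 30.7 ± 15.1 and 12.7 ± 5.55 CPM in cKO (mean ± SD, n = 5 each). Both genes were lower after injection in each genotype, so their sum had to be lower too and does not test how reads were assigned. Reads of the shared part may enter the sum from both genes.

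**Figure D3:**
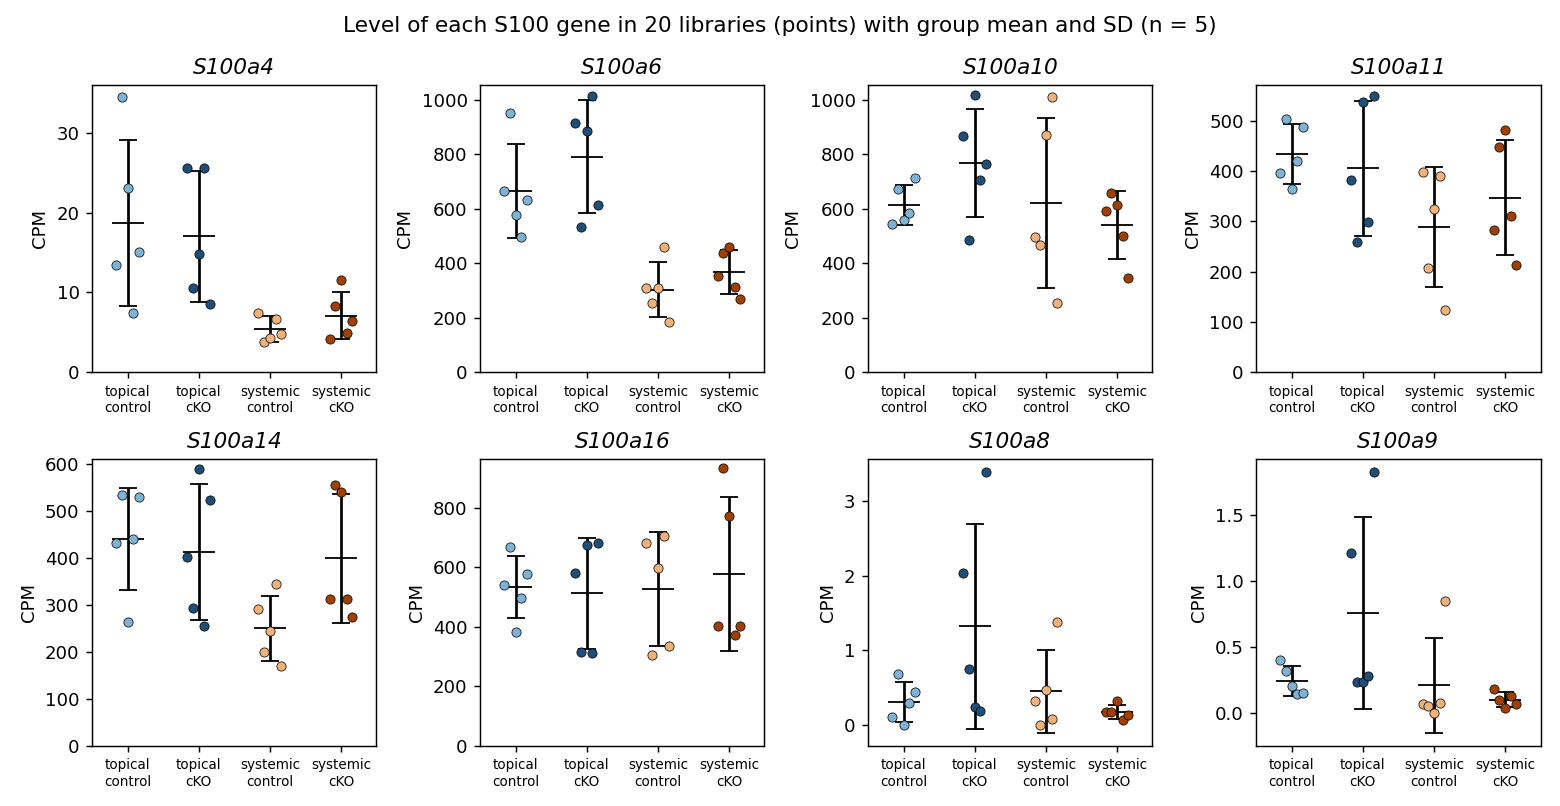
Level (CPM) of each of the 8 S100 genes in 20 libraries, 5 mice per group, with group mean and SD. S100a6 is lower in both systemic groups with no overlap with the topical groups of the same genotype, and S100a8 and S100a9 stay below 3.5 CPM with 3 libraries standing above the others.

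S100a10 (ENSMUSG00000041959) forms a tetramer with annexin A2 that anchors channels and plasminogen at the membrane, and it is the S100 protein that has lost calcium binding. It was at 543, 672, 558, 583 and 711 CPM in topical controls and at 497, 465.5, 871, 1012 and 253 CPM in systemic controls. The systemic controls spread from 253 to 1012 CPM, the widest of the 4 groups, and overlapped them fully. Topical cKO held 867, 485, 1017, 707 and 763.5 CPM and systemic cKO 591.5, 659, 615, 498.5 and 344 CPM. Between these cKO groups the log2 fold change was -0.50 (SE 0.29, edgeR adjusted p = 0.319), and the interaction was -0.52 (SE 0.41, adjusted p = 0.600). In controls the route difference was 0.015 (SE 0.29, adjusted p = 0.978).

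Anxa2, the partner of S100a10, was far more abundant, at 5254 ± 584 CPM in topical and 7237 ± 2960 CPM in systemic controls (SD, n = 5 each), and was called in none of the 5 comparisons. Over the 20 libraries log2 CPM of S100a10 and Anxa2 had a correlation of 0.528, and of 0.915 after the mean of each group was taken out. These libraries share depth and mitochondrial share with both genes, so this is a description only.

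S100a11 (ENSMUSG00000027907), calgizzarin, binds annexin A1. Its level was 397, 504, 364, 421 and 489 CPM in topical controls and 399, 208, 325, 390.4 and 124 CPM in systemic controls. Systemic controls 3 and 6, both with the higher mitochondrial share, were lowest. The log2 fold change was -0.59 (SE 0.30, edgeR adjusted p = 0.171), and with the mitochondrial percentage as a covariate, an alternative chosen after seeing the data, it was -0.71 (adjusted p = 0.0101). Topical cKO ranged from 258 to 551 CPM with a median of 382, and systemic cKO from 214 to 483 CPM with a median of 310.4. In cKO the route difference was -0.22 (SE 0.30, adjusted p = 0.704). Anxa1 itself was at 1884 ± 273 CPM in topical and 2015 ± 829 CPM in systemic controls (SD, n = 5 each).

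The list of annexins and intracellular partners held 10 genes, all tested. For both genotype comparisons and the interaction 0 were called. For route in controls 3 of the 10 were called, where 18.3% of all genes were called, so the count is near that share. Myh9, the partner of S100A4, was higher after injection (log2 fold change 1.09, SE 0.30, edgeR adjusted p = 0.0151), Anxa6 was higher (0.65) and Anxa5 lower (-0.71). In cKO 0 of the 10 were called for route, with 4 at an unadjusted p under 0.05. The list's median log2 fold change was 0.25 for route in controls and 0.31 in cKO. Myh9 averaged 24.9 ± 3.85 CPM in topical and 52.8 ± 15.4 CPM in systemic controls (SD, n = 5 each), the direction opposite to S100a4. Cacybp, the partner of S100A6, was at 66.7 ± 8.29 and 56.97 ± 7.84 CPM, and its route difference in controls was -0.23 (SE 0.15, edgeR adjusted p = 0.299).

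S100a14 (ENSMUSG00000042306) is an epithelial S100 protein found at cell borders. It was at 431.5, 533, 264, 440.1 and 529.7 CPM in topical controls and 291, 199, 244, 344 and 170.2 CPM in systemic controls. Topical control 5 fell among the systemic controls, and the 4 other topical controls lay above all of them. The means were 439.7 ± 109 and 249.6 ± 69.7 CPM (SD, n = 5 each), a log2 fold change of -0.82 (SE 0.28, edgeR adjusted p = 0.0452). This call sat close to the threshold: 3 of 10 fits that left out 1 library made it, and the adjusted p reached 0.112 without systemic control 3. With the satellite-like covariate, which separates the controls as route does, the log2 fold change was -0.39 (edgeR adjusted p = 0.984). This covariate rests on systemic cKO 2 alone. By mitochondrial side the means were 498 CPM topical and 293 CPM systemic (3 libraries each) and 352 and 185 CPM (2 each).

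In cKO the route difference of S100a14 was -0.048 (SE 0.28, edgeR adjusted p = 0.941), with topical cKO at 402, 293, 589.6, 254 and 523 CPM and systemic cKO at 312, 555, 539.7, 312 and 275 CPM. The groups overlapped over most of their range. For systemic cKO against systemic control the fitted difference was 0.68 (SE 0.28), with an unadjusted p of 0.0241 and an edgeR adjusted p of 0.239, so it was not called. The difference between the genotype effects was 0.77 (SE 0.39, adjusted p = 0.391). With the mitochondrial percentage as a covariate the systemic genotype difference became 0.88 (adjusted p = 0.00593), and with the satellite-like covariate, which nearly follows genotype in the systemic libraries, it became 0.32 and was not called.

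S100a16 (ENSMUSG00000074457), a widely expressed S100 protein and the genomic neighbour of S100a14, was the member with the least difference between groups. Group means were 533.5 ± 105 CPM in topical controls, 513 ± 186 in topical cKO, 527 ± 191 in systemic controls and 577 ± 259 CPM in systemic cKO mice (SD, n = 5 each). Single libraries ranged from 307 CPM (systemic control 3) to 935 CPM (systemic cKO 4), so the spread within groups was far larger than that between them. The log2 fold changes in the 5 comparisons ran from -0.058 to 0.19, with edgeR adjusted p from 0.793 to 0.997.

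The spread of S100a16 followed the mitochondrial share. In the 10 libraries with the lower share it ran from 539.9 to 935 CPM with a mean of 665 CPM. In the 10 others it ran from 307 to 772 CPM with a mean of 410.3 CPM. Systemic cKO 5 was the 1 library of the latter that passed 500 CPM. S100a14 averaged 444 and 306 CPM on these sides, S100a11 442 and 296.5, S100a10 761 and 510, S100a6 617 and 444 and S100a4 13.9 and 10.2 CPM. The abundant members thus all had the higher mean where the mitochondrial share was lower. The sides hold unequal numbers of topical and systemic libraries, so these means carry the route difference as well. Inside single groups the abundant members kept this order, whereas S100a4 in topical cKO averaged 16.3 CPM on the lower and 18.1 CPM on the higher side. Inside the sides, S100a6 rose with the mitochondrial share (correlations 0.68 and 0.37) and S100a16 fell (-0.40 and -0.61). The part of RNA quality or cell state in this was not tested.

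**Figure D4:**
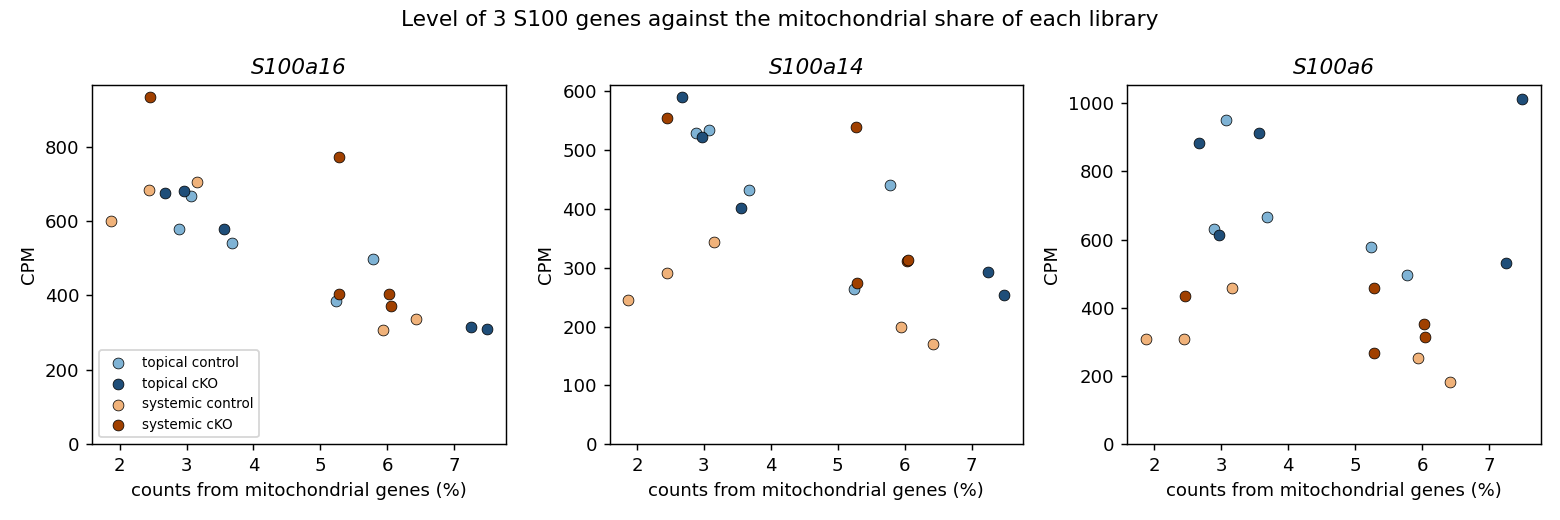
Level (CPM) of S100a16, S100a14 and S100a6 against the percentage of counts from mitochondrial genes, 1 point per library, coloured by group. S100a16 separates by mitochondrial share (mean 665 CPM below the gap and 410.3 CPM above it), whereas S100a6 separates by route on both sides of the gap.

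S100a8 (ENSMUSG00000056054) and S100a9 (ENSMUSG00000056071), the calprotectin genes, were barely detected. All 20 libraries together held 236 reads of S100a8 and 141 of S100a9. S100a8 was at or under 3 reads in 8 libraries and S100a9 in 11. S100a8 was at 0.101, 0.683, 0, 0.286 and 0.444 CPM in topical controls, and at 2.04, 0.749, 0.231, 0.179 and 3.40 CPM in topical cKO. S100a9 was at 0.403, 0.315, 0.205, 0.143 and 0.148 CPM in topical controls and at 1.21, 0.231, 0.231, 0.281 and 1.83 CPM in topical cKO. In both genes topical cKO 2 and 7 stood above the rest. Of the other 3 topical cKO libraries, number 3 was just above the highest control in S100a8, and the remaining values overlapped the controls.

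After injection S100a8 was at 0.319, 0, 0.461, 0.0715 and 1.39 CPM in controls and 0.176, 0.171, 0.316, 0.0632 and 0.125 CPM in cKO. S100a9 was at 0.0638, 0.0539, 0, 0.0715 and 0.851 CPM in controls and 0.176, 0.0978, 0.0351, 0.126 and 0.0625 CPM in cKO. Systemic control 6 stood above its group in both genes. Topical cKO 2 and 7 and systemic control 6 together held 62.7% of all S100a8 reads and 61.7% of all S100a9 reads, so the 2 genes were high in the same 3 mice.

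For S100a8 the log2 fold change of cKO against control was 1.99 (SE 0.85, unadjusted p = 0.0281, edgeR adjusted p = 0.800) after topical treatment and -1.46 (SE 0.92, adjusted p = 0.488) after injection. The difference between these effects was -3.45 (SE 1.25, unadjusted p = 0.0115, adjusted p = 0.204). None of these was called. For route in cKO the log2 fold change was -2.78 (SE 0.90, edgeR adjusted p = 0.0556). DESeq2's Wald test called it, at -2.91 (adjusted p = 0.0175), and so did edgeR without topical cKO 4 (-3.04, adjusted p = 0.0417) or without topical cKO 5 (-3.10, adjusted p = 0.0366), whereas without topical cKO 7 it was -2.13 (adjusted p = 0.163). Without topical cKO 2 the gene no longer passed the filter. S100a9 was fitted with every detected gene kept (21255 genes). Its route difference in cKO was -2.92 (SE 0.82, adjusted p = 0.0359), and all 5 systemic cKO libraries lay below all 5 topical ones. The systemic cKO libraries held 1 to 4 reads of S100a9 each, and the 3 lowest topical cKO libraries held 4, 3 and 11. In the other 4 comparisons S100a9 had adjusted p from 0.306 to 1.

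Neutrophils carry far more calprotectin than keratinocytes, so their markers were read in the same libraries. The 12 neutrophil and monocyte markers summed to 1.55 CPM in topical cKO 2, 3.31 in topical cKO 7 and 2.25 CPM in systemic control 6, where the 17 other libraries ran from 0.856 to 3.13 CPM. Ly6g and Retnlg, which mark mature neutrophils, had no read in any of the 20 libraries. Other genes of the same list did have reads over the 20 libraries: 437 for Cxcr2, 193 for Itgam, 35 for Lyz2 and 15 for Csf3r. Cxcr2 (mean 1.14 CPM) and Itgam (0.488 CPM) thus made up most of the sum. Ptprc, which all leukocytes express, had 16 reads in all. Systemic control 6 also held the highest melanocyte marker sum, 35 CPM, beside a fibroblast sum of 40.6 CPM. All these sums use the library total alone and are not on the scale of the S100 levels.

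Genes that stressed epidermis switches on together with calprotectin were given as a list of 12, of which 11 were in the table and 9 were tested. For both genotype comparisons and the interaction 0 were called, with median log2 fold changes of 0.67, -1.01 and -1.44. For route in controls 0 were called, with a median of -0.74. For route in cKO 5 of 9 were lower after injection, where 4.02% of all genes were called lower, and the median of the 9 was -2.12. The 5 called were Krt6b (log2 fold change -5.34), Krt6a (-3.80), Sprr1b (-3.08), Krt16 (-2.28) and Lcn2 (-2.12), with edgeR adjusted p from 0.00548 to 0.0311. Krt6a and Krt6b, keratins of wound-edge epidermis, are near-identical copies whose reads may be split between them. Krt16 fell from a mean of 14840 ± 12570 CPM in topical cKO to 3049 ± 1934 CPM after injection (SD, n = 5 each). Lcn2, a siderophore-binding protein also made by neutrophils, averaged 2.92 ± 1.45 and 0.672 ± 0.405 CPM.

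The libraries high in S100a8 were not all high in these genes. Topical cKO 7 held the highest Krt6a, 2147 CPM, and the highest Sprr1b, 1106 CPM, of the 20 libraries. Systemic control 6, by contrast, held 22.99 CPM of Krt6a and 13.9 CPM of Sprr1b, the lowest Sprr1b of all.

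**Figure D5:**
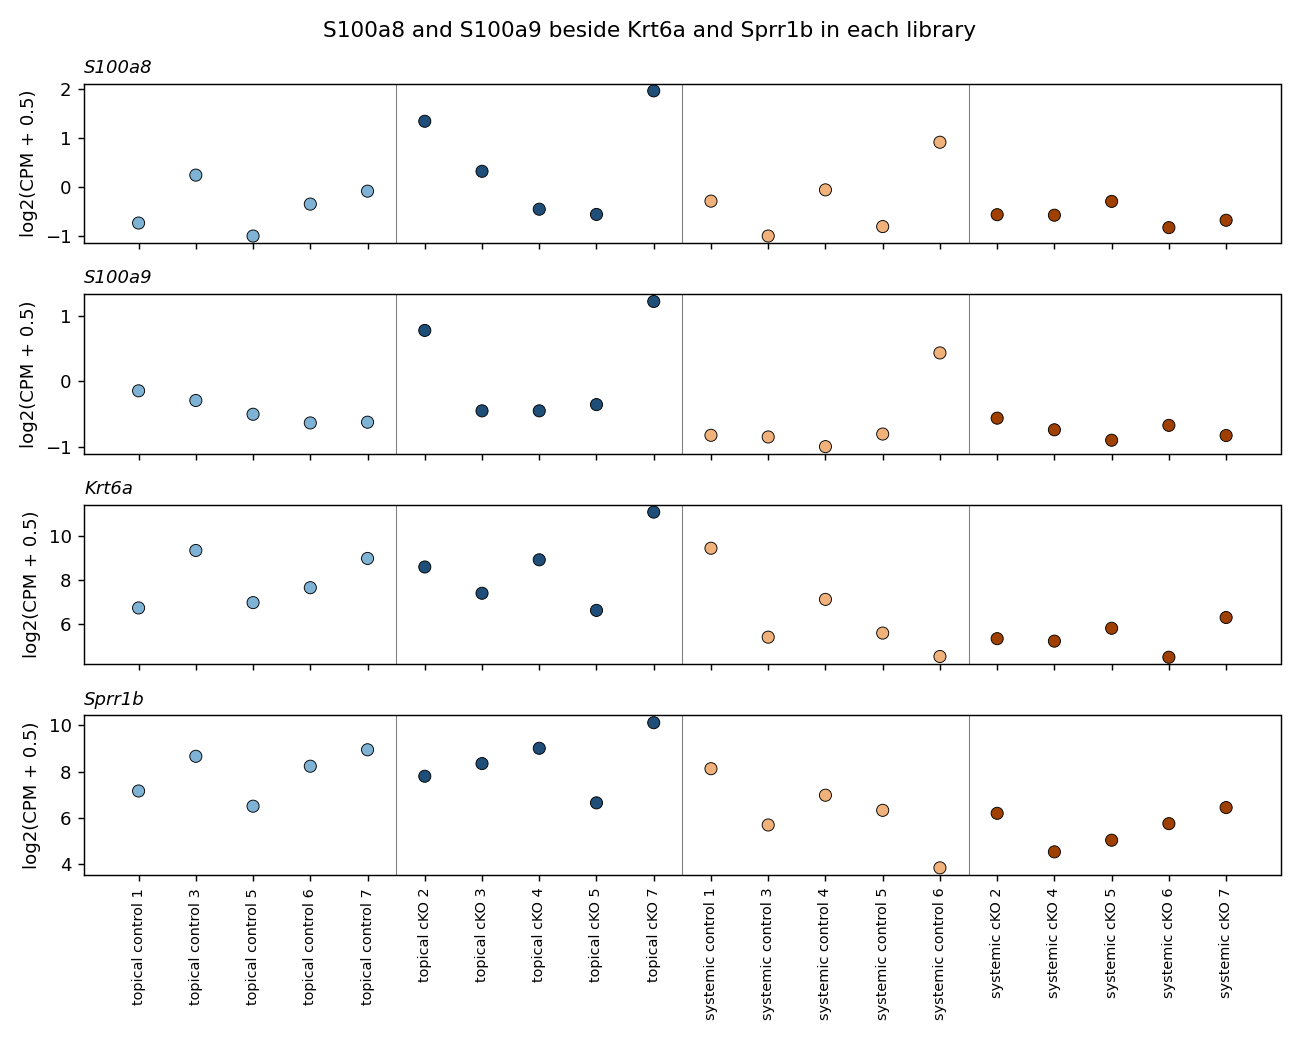
log2(CPM + 0.5) of S100a8, S100a9, Krt6a and Sprr1b in each of the 20 libraries. Topical cKO 7 is highest in all 4 genes, whereas systemic control 6, next after topical cKO 7 and 2 in S100a8 and S100a9, is among the lowest in Krt6a and Sprr1b.

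Among 6 genes for receptors of extracellular S100 proteins, 4 were tested. Mcam, an adhesion molecule that binds S100A8/A9, was called for topical cKO against control, at 19.7 ± 6.09 CPM against 1.21 ± 0.176 CPM (SD, n = 5 each), a log2 fold change of 4.03 (edgeR adjusted p = 1.34e-04). It was lower in systemic than topical cKO (-1.60, adjusted p = 0.0173). Bsg, a further receptor of S100A9, was called in none of the 5 comparisons. Nptn, a receptor of S100A8, was lower after injection in controls (-0.56, adjusted p = 0.0114). Ager and Tlr4 did not pass the filter.

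Other genes of the family gave few calls. Of 9 other S100 genes, S100a1 and S100a13 were tested and neither was called in any comparison, and S100a5 had no read in any library. Of 7 fused S100 genes, whose long products begin with an S100 domain, 4 were tested. Flg2 was higher in systemic cKO than systemic control (log2 fold change 1.78, SE 0.43, edgeR adjusted p = 0.0318). It was also higher after injection in controls (1.85, adjusted p = 0.00985) and in cKO (3.71, adjusted p = 6.23e-05), the direction opposite to S100a4 and S100a6. Its means were 1.10 ± 0.314 CPM in topical controls, 1.07 ± 0.854 in topical cKO, 4.04 ± 0.706 in systemic controls and 13.9 ± 9.48 CPM in systemic cKO mice (SD, n = 5 each). Hrnr was higher after injection in cKO (2.55, adjusted p = 0.0148). With the satellite-like covariate, which rests on systemic cKO 2 alone, 0 of 12424 genes were called for genotype after injection. Flg2 was thus not called there either.

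Of 10 genes for transcription factors of stressed or differentiating epidermis, all tested, 0 were called in both genotype comparisons, the interaction and route in cKO. For route in controls 3 were called, where 18.3% of all genes were called, so the count is near that share. Cebpa was lower (log2 fold change -0.80) and Fosl1 (0.95) and Nfkbiz (0.89) were higher. Nr3c1, the glucocorticoid receptor gene, was called in none of the 5 comparisons, with log2 fold changes from -0.18 to 0.22.

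For each tested member, the 3 other tested genes with the most similar log2 CPM over the 20 libraries were named, with predicted genes passed over. S100a4 was most like Fam81a (Pearson correlation 0.944), Stom (0.903) and Nip7 (0.897). S100a6 was most like Ftl1 (0.941), Plpp3 (0.928) and Dap (0.919). For S100a10 these were Sfr1 (0.903), Fth1 (0.888) and Cfl1 (0.854), so that the ferritin genes Ftl1 and Fth1 stood beside S100a6 and S100a10. For S100a11, Fxyd3 (0.961) and Rps23 (0.958) were among them. S100a14 was most like Snx22 (0.961), Ppib (0.952) and Spint2 (0.951), and S100a16 was most like Crip2 (0.966), Rab1b (0.965) and Cyb5a (0.956). S100a8 had no neighbour of that closeness, with Arhgap45 at 0.728, Zcchc17 at 0.720 and Mlkl at 0.701. All points share a library, its depth and its mitochondrial share.

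Among the members themselves, S100a4 and S100a6 had a correlation of 0.877 over the 20 libraries and 0.693 with group means taken out. S100a14 and S100a16 had 0.758 and 0.931, S100a11 and S100a14 0.885 and 0.873. With group means taken out, S100a8 had correlations from -0.25 to 0.28 with the other tested members and 0.793 with S100a9. On the same basis S100a10 had 0.818 with S100a11, and S100a6 had 0.775 with S100a10. S100a4 thus varied most with S100a6, and the abundant members, S100a6 and S100a10 included, varied with each other inside groups. S100a8 varied with S100a9 and little with the rest.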

How the data were processed

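Total RNA of sorted keratinocytes of each mouse was made into SmartSeq II libraries and sequenced on an Illumina NovaSeq instrument, per the labels' protocols. The authors deposited 1 table of raw counts, whole-number reads per gene without normalization, with 1 column per mouse named by its label. The submitters' processing notes name STAR, featureCounts and GRCm38/mm10. Versions and the strand setting are not given in the sources used here. All columns were used. Of 25719 identifiers, 25614 were found in GENCODE M21 and 24950 carried the same symbol.

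All 20 libraries were fitted with edgeR 4.0.16 in R 4.3.3 (TMM, filterByExpr with a minimum count of 10 and minimum total of 15, robust quasi-likelihood F tests, two-sided, 1 coefficient per group), with Benjamini-Hochberg adjustment over 12424 genes. SEs of log2 fold changes were derived from the F statistic. The scripts were tested on simulated data. Among the 40 pairs of libraries within groups, correlations of log2 CPM over genes ran from 0.944 to 0.990 and no 2 columns were identical. Correlations used log2(CPM + 0.5). No molecular identifiers are described, so the floor of 3 counts covers counting error only.

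Alternatives were DESeq2 1.42.0 size factors and Wald test, no filter, only the libraries compared, a replicate block, sex (from Y-linked genes), satellite-like CPM over 50, and leaving out each library. A mitochondrial covariate and removal of length trends were chosen after seeing the data, as was the gap at 4.5% mitochondrial counts. Named genes are the 8 members, up to 3 called genes per list and comparison, the partners of a member, and each member's 3 nearest genes by correlation, of which 1 is not reported here. Beyond this rule, all 5 called genes of stressed epidermis were named for route in cKO. Nr3c1, S100a1 and S100a13 were named though they were not called. Gm42674, Fbln1, Cxcr2, Itgam and the genes with few or no reads were named after their values were seen. The members and lists were chosen with earlier results of these data known.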

Additional observations from a re-analysis of the deposited data

Results flagged for a closer look

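S100a9 in systemic control 6, at 0.851 CPM (35 reads), stood apart from the 4 other systemic controls, which ran from 0 to 0.0715 CPM. The gap to its nearest neighbour, as a share of the group's range, exceeded Dixon's critical value of 0.71 for 5 samples. It was the 1 such value among the 32 sets of 5 libraries tested (8 genes in 4 groups), and chance gives about 1 in 20. S100a8 was highest in the same library, at 1.39 CPM (57 reads), and its gap did not exceed that value.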

How the results depend on the processing

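Of 234 member log2 fold changes under 7 alternative settings, 212 kept their direction and their side of the threshold, 8 fell short of it, 1 passed it and 13 changed sign. Of 70 under the 2 settings chosen after seeing the data, 61 kept both, 2 passed the threshold and 7 changed sign. The values that changed sign belonged to differences that were not called, and the cause of each change was not tested. S100a6 for route in cKO was called under every one of the 9 alternatives, with log2 fold changes from -1.12 to -1.02. S100a8 and S100a9 rest on few reads, and whether more depth would change their results was not tested. S100a8 did not pass the filter in fits of only the libraries compared. The interaction needs all 4 groups, so no such fit was made for it.

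DESeq2's Wald test called 42 genes for topical genotype, 563 for systemic genotype and 315 for the interaction. A fit of only the libraries compared called 35 for systemic genotype. Without a filter S100a10 for route in controls was -0.0049, S100a14 there had an edgeR adjusted p of 0.0512, and S100a4 for route in cKO had 0.0958. With sex as a covariate 49 genes were called for the interaction and S100a10 for route in controls was -0.036.

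The mice were not treated as paired by the numbers in the sample names. Deviations of same-numbered libraries correlated from -0.36 to 0.383, and not every pair exceeded 0.1 in any comparison. With 3 or 4 such pairs per comparison, this cannot settle whether the numbers pair the mice. With the number as a replicate block 9 genes were called for topical genotype, 0 for the interaction, and 1 member, S100a6, for route in cKO. S100a10 was then -0.032 for topical genotype and -0.23 for route in controls. With the block S100a14 for route in controls had an edgeR adjusted p of 0.0521 and S100a4 for route in cKO 0.0843.

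When satellite-like transcripts over 50 CPM entered as a covariate, 0 genes were called for systemic genotype, 0 for the interaction and 1 for route in controls, where 0 members were called. For route in cKO 1 member was called. Changed signs were -0.37 (S100a4), -0.033 (S100a11) and -0.39 (S100a16) for systemic genotype, -0.24 (S100a4), -0.028 (S100a6) and -0.33 (S100a16) for the interaction, -0.15 (S100a10) and 0.61 (S100a16) for route in controls, and 0.029 (S100a14) for route in cKO.

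With the mitochondrial percentage as a covariate, 1320 genes were called for systemic genotype, 364 for the interaction and 3496 for route in controls, and 1 member, S100a14, for systemic genotype. Signs changed for S100a16 for topical genotype (0.032), S100a10 for systemic genotype (0.052) and route in controls (-0.086), and S100a14 for route in cKO (0.035). With length trends removed the interaction called 82 genes, and S100a6 for the interaction was -0.031, S100a16 for route in controls 0.091 and S100a14 for route in cKO 0.022.

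Leaving out 1 library at a time, genes called ran from 10 to 19 for topical genotype, 81 to 787 for systemic genotype (787 without systemic cKO 2, 81 without systemic cKO 6), 16 to 470 for the interaction (470 without systemic cKO 2), 1463 to 2524 for route in controls and 746 to 1218 for route in cKO. Members called ran from 1 to 3 for route in cKO, 2 to 3 for route in controls and were 0 elsewhere. Signs changed in 35 of 414 member values, all uncalled. Their results ran as follows: for topical genotype S100a4 from -0.32 to 0.22, S100a11 from -0.23 to 0.026, S100a14 from -0.26 to 0.039 and S100a16 from -0.18 to 0.077. For systemic genotype S100a10 ran from -0.39 to 0.055 and S100a16 from -0.11 to 0.26. For the interaction S100a6 ran from -0.14 to 0.22 and S100a16 from -0.052 to 0.32. For route in controls S100a10 ran from -0.23 to 0.21 and S100a16 from -0.15 to 0.13. For route in cKO S100a14 ran from -0.20 to 0.12 and S100a16 from -0.071 to 0.30.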
